A study of Rattus norvegicus with 15 samples.

Results

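The olfactory receptor (OR) genes of rat chromosome 20 lie beside the major histocompatibility complex (MHC), and 48 of them were represented on the array. Membership rests on annotation and uses no measured value, taking every probe other than a control whose gene name begins with Olr and whose position on the array's genome build, rn3, is on chromosome 20. Each of the 48 genes had 1 probe, out of 1112 Olr probes and 41012 probes in all, and the other 1064 Olr probes served for comparison. A further probe named Olr1730 had no position in the annotation and was not counted among the 48.

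Transcript levels were measured in the olfactory epithelium of 8 untreated Brown Norway rats aged 6 weeks. Males 1, 2, 5 and 6 gave 7 arrays, both nostrils (named A and B) except in male 1, where nostril A alone was measured, and females 3, 4, 7 and 8 gave 8 arrays. Each of the 15 one-color Agilent arrays held the RNA of 1 nostril. The design allows the sexes, the animals of a sex and the nostrils of an animal to be compared. The animals, all of 1 inbred strain, were bought from 2 suppliers, but the labels do not say which rat came from which, so supplier was not compared and its part in differences between rats was not tested.

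An OR is a G protein-coupled receptor on the cilia of an olfactory sensory neuron, and each neuron generally uses a single OR gene from a single allele. ORs related in sequence tend to lie together in genomic clusters, and many are used only within a zone of the epithelium. The clusters linked to the MHC are known from several mammals and have drawn interest because odors can carry information on MHC type, although what most of these receptors bind is unknown.

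On rn3 the 48 probes formed a single cluster by the rule that a gap over 500 kb starts another, and they spanned 1450291 bases, from Olr1668 (chr20:93420-93479) to Olr1750 (chr20:1543651-1543710). The widest gap, of 319057 bases, separated 28 genes ending with Olr1704 from 20 genes beginning with Olr1714. The minus strand carried 32 of the probes and the plus strand 16. RT1-M3, an MHC class Ib gene (chr20:1412672-1412731), and Ubd, which encodes a ubiquitin-like protein (chr20:1476014-1476073), lay between members of the cluster. Gabbr1, which encodes a subunit of the GABA-B receptor and is a landmark of the extended MHC class I region, lay just beyond Olr1750, at chr20:1554609-1554668. The annotation does not say where in a transcript a probe lies.

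By accession, 46 of the 48 genes were found in RefSeq (assembly GRCr8), and 44 of these carried a current name that gives the receptor subfamily. The names fell into 12 subfamilies in blocks along the chromosome. Or2n had 8 members, all between Olr1668 and Olr1683. Or14j had 7 and Or10al 6, all on the same side of the widest gap, and Or1o had 8, all on the other side. Or2h had 5 members, Olr1684 before the gap and Olr1746, Olr1748, Olr1749 and Olr1750 at the far end.

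Because related ORs can be alike in sequence, the probes were compared with each other, and the 3 pairs with the most matching minus mismatching bases are shown first, with their longest shared run in capitals. Without gaps, the probes of the Or14j receptors Olr1689 (chr20:558733-558792, minus strand) and Olr1690 (chr20:581287-581346, minus strand) matched at 50 of 56 overlapping bases.
Olr1689: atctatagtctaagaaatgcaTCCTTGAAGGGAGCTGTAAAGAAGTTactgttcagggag
Olr1690: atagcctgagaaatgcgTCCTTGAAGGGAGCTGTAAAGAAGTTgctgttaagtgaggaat
The probes of the Or2h receptors Olr1746 (chr20:1489921-1489980, plus strand) and Olr1748 (chr20:1530493-1530552, plus strand) matched at 49 of 54 bases.
Olr1746: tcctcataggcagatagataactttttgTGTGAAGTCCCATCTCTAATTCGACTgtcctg
Olr1748: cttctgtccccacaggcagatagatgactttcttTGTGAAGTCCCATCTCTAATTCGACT
The probes of the Or1o receptors Olr1733 (chr20:1290708-1290767, minus strand) and Olr1739 (chr20:1407625-1407684, plus strand) matched at 51 of 58 bases.
Olr1733: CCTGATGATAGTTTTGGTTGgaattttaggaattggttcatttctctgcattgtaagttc
Olr1739: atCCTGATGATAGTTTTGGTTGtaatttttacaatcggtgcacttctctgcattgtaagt

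Among the Or2n receptors, Olr1678 (chr20:248280-248339, minus strand) and Olr1682 (chr20:305944-306003, minus strand) matched at 48 of 56 bases, and Olr1679 (chr20:261901-261960, minus strand) matched Olr1678 at 40 of 43. These 3 are shown because their levels and calls are described below. In the first pair capitals mark the run that Olr1678 and Olr1682 share, and in the second the run that Olr1678 and Olr1679 share.
Olr1678: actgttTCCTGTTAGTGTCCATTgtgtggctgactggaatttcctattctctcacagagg
Olr1682: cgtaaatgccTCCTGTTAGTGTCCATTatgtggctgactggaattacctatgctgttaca
Olr1678: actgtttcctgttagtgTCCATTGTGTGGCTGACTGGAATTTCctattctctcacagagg
Olr1679: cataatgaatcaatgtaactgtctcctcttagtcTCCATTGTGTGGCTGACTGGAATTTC
Other alike pairs are not shown, among them Olr1696 and Olr1697 of the Or10al subfamily (50 of 59 bases), Olr1702 and Olr1686 of the Or2g subfamily (45 of 49 bases), and Olr1697 and Olr1699 (37 of 40 bases, with a shared run of 27). How much transcript of a related gene bound to such probes was not tested.

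The first question was which of these receptors are expressed in the nose of a young adult rat. Detection followed the scanner software, which calls each spot well above background or not, and a gene was called expressed when detected on at least 11 of 15 arrays, weakly expressed on 1 to 10 and not expressed on none. Of the 48 genes 39 (81.25%) were expressed, 7 weakly expressed and 2 not expressed. Among the other 1064 Olr probes 685 (64.4%) were expressed and 204 (19.2%) not expressed, and among all 41012 probes 26687 (65.1%) were expressed. By chromosome, the share expressed was 84.6% of 26 Olr probes on chromosome 4, 80% of 30 on chromosome 11 and 77.8% of 36 on chromosome 15, and 54.4% of 147 on chromosome 8. These shares were not tested against each other, since neighboring receptors are not independent.

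The expressed receptors covered both sides of the widest gap, 24 of 28 genes before it and 15 of 20 after it. Detection on all 15 arrays was seen for 30 genes (62.5%), 22 before the gap and 8 after it, against 54.6% of the other Olr probes and 61.3% of all probes. All 6 Or10al and 6 of the 7 Or14j receptors were on all 15 arrays. The Or1o subfamily was the most mixed, with 4 members expressed, 3 weakly expressed and 1 not expressed.

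**Figure D1:**
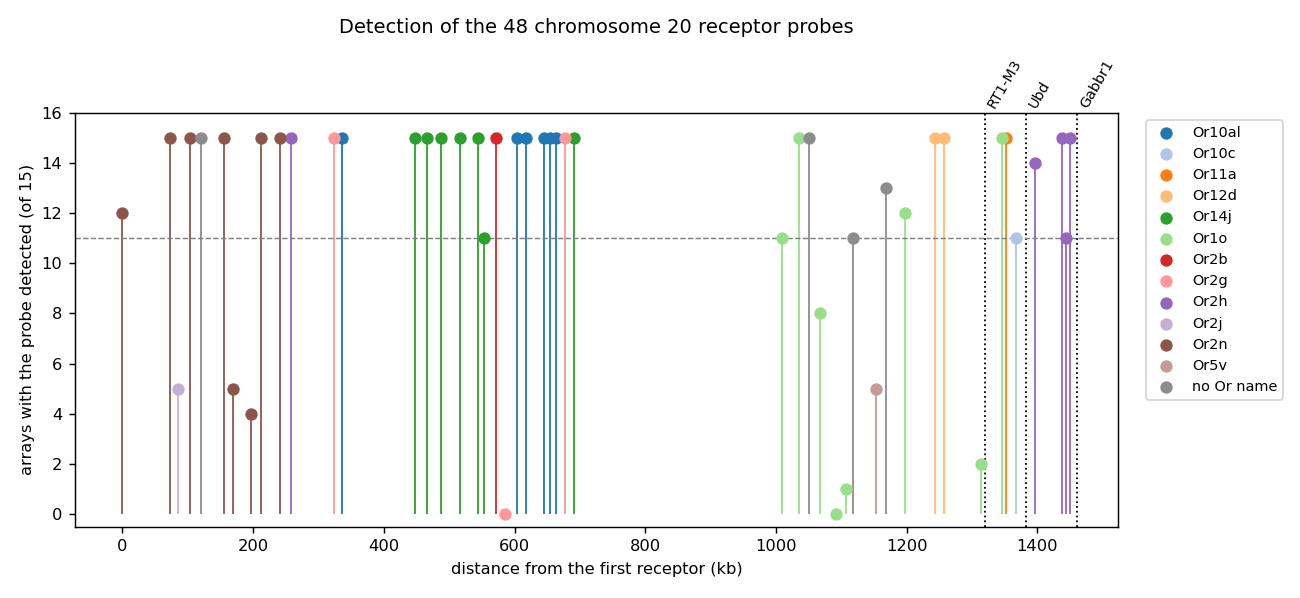
Each stem is 1 receptor probe, placed by its distance in kb from the first receptor of the cluster (x axis), and its height is the number of arrays of 15 on which it was detected (y axis). Colors give the RefSeq subfamily, the dashed line marks the 11 arrays that make a gene expressed, and dotted lines mark RT1-M3, Ubd and Gabbr1. Of the genes before the wide gap 22 of 28 stand at 15 arrays, against 8 of 20 after it.

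The 2 receptors that were not expressed are shown by their probes, Olr1695 of the Or2g subfamily (chr20:679118-679177, minus strand) and Olr1724 of the Or1o subfamily (chr20:1185433-1185492, minus strand).
Olr1695: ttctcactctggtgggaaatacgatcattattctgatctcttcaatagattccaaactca
Olr1724: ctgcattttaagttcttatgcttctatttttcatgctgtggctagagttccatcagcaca
The signal of Olr1724 ran from -4.01 to 2.19 intensity units over the 15 arrays, around the zero that is left once background is removed. That of Olr1695 ran from 4.88 to 11.7 intensity units, above zero on every array. On each array the dimmest probe that counted as detected had between 10.01 and 14.49 intensity units. Olr1695 was below that value on 14 arrays and above it on nostril A of female 8 (11.7 against 10.3), where it was still not called. When any positive and significant signal counted as detected, 46 of the 48 genes (95.8%) were expressed and 1 was not, against 82.7% of the other Olr probes and 76.7% of all probes expressed by that rule.

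The 7 weakly expressed receptors were Olr1722 (8 arrays), Olr1671, Olr1679 and Olr1730 (5 arrays each), Olr1681 (4 arrays), Olr1739 (2 arrays) and Olr1726 (1 array). Of the 5 related pairs shown above, 3 had both genes expressed. In the other two, Olr1679 was detected on 5 arrays and Olr1678 on 15, and Olr1739 was detected on 2 arrays and Olr1733 on 12.

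Both nostrils of an animal often received different calls near this limit. The 16 genes detected on 1 to 14 arrays gave 112 comparisons of nostrils in the 7 rats with both, and the calls differed in 41 of them. No receptor was detected in both nostrils of a single rat and nowhere else, or missed in both nostrils of a single rat and detected in every other array. Only Olr1739, detected on 2 arrays, and Olr1731, on 13, had counts that allow either pattern, so this says nothing of the other receptors.

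The number of the 48 genes detected on an array was 34 to 42 in males (median 38) and 36 to 45 in females (median 40.5). The 4 arrays of slide 3, which held males 5 and 6 alone, had 34 to 38, and the 11 arrays of the other slides had 36 to 45. Over all probes 26233 to 28741 were detected per array, with the lowest numbers in male 6 (26548 and 26233). Slide and animal cannot be told apart in these counts.

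Levels are given on a log2 scale as the signal over the median of its array, so that 0 equals the median probe, and are compared within a probe only. The sample was checked for its cell types. Of 13 probes for genes of mature olfactory neurons, such as Omp, Gnal and Cnga2, 12 were on all 15 arrays, and Rtp2 was on 1. All 7 probes of immature neurons and all 3 of sustentacular cells were on all arrays, as were 3 of 4 for basal cells, both for blood and all 4 for bone. Bowman gland had 3 of 3 probes expressed and respiratory ciliated cells 3 of 6, while none of the 3 muscle probes was expressed. In such whole tissue, fewer neurons that use a receptor and less RNA per neuron cannot be told apart.

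The second question was whether the sexes use these receptors differently. Of the 48 genes 40 were detected on at least 7 arrays and were tested, and a gene could pass that filter through 1 sex. By limma on the mean of each rat's nostrils, with Benjamini-Hochberg adjustment over all probes, 0 of the 40 passed a false discovery rate of 1%, against 12 of 27625 probes (0.0434%). None passed 5% either, and the lowest adjusted p was 0.139. At an unadjusted p under 0.05 there were 4 of 40 (10%), against 17.1% of all probes. The order of these shares turned after normexp background correction, which models the background in place of subtracting it (7.5% against 6.55%), and without male 2 (17.5% against 16.6%). The methods' t-test, run here over the arrays, counts both nostrils of a rat as separate replicates, which overstates the number of animals. With the same adjustment it called 0 of the 39 expressed receptors and 606 of 26636 probes at 1%. Before adjustment, 3 receptors (7.69%) and 28.5% of probes had p under 0.05 by that test. The paper reports only a few genes between the sexes, none of them an OR gene. Females had the higher mean for 22 receptors and males for 18, and the median difference was 0.03 log2 units toward females, against 0.01 for all tested probes and 0.06 for the other Olr probes.

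For 2 receptors the rats of the sexes did not overlap, which was 5% of the 40 and held for 11.3% of all probes. The probe of Olr1692, an Or14j receptor, lies at chr20:636667-636726 on the minus strand.
Olr1692: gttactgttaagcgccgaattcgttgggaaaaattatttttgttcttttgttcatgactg
Its level was 2.53, 2.71, 2.58 and 2.29 in males 1, 2, 5 and 6, and 3.17, 2.84, 2.87 and 2.79 in females 3, 4, 7 and 8. Every female rat lay above every male rat, the closest pair being female 8 and male 2. The female mean of 2.92 ± 0.17 was 1.31-fold the male mean of 2.53 ± 0.17 (SD, n = 4 each), and the difference of 0.39 (SE 0.11) did not pass limma's test (adjusted p = 0.139).

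Olr1686, an Or2g receptor, showed the same order. Its level was 0.67, 0.52, 0.28 and 0.01 in males 1, 2, 5 and 6, and 0.78, 0.97, 0.86 and 0.68 in females 3, 4, 7 and 8. The lowest female, at 0.68, was nearly level with the highest male, at 0.67. The difference was 0.45 (SE 0.14), 1.37-fold, and did not pass (adjusted p = 0.163 by limma). It was 0.25 after normexp background correction (adjusted p = 0.522 by limma).

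The other 3 receptors with the smallest unadjusted p were also higher in females. Olr1722, an Or1o receptor near the detection limit, had a female mean of -2.20 ± 0.27 and a male mean of -2.79 ± 0.33 (SD, n = 4 each), and its rats overlapped. That difference of 0.59 (SE 0.21, adjusted p = 0.197 by limma) was the widest of the 40, and became 0.12 after normexp background correction. The receptor was detected on 2 male and 6 female arrays, so it passed the filter mainly through females. Olr1694, of the Or2b subfamily, differed by 0.28 (SE 0.12, adjusted p = 0.275 by limma). Olr1684, of the Or2h subfamily, differed by 0.21 (SE 0.10, adjusted p = 0.293 by limma), and by 0.12 after normexp background correction.

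Slide could not be separated from sex in these values. Only slide 1 held both sexes, with 1 female array (nostril A of female 3) and 3 male arrays of 2 rats. A fit with slide as a block therefore compares that single female array with those males and says little of the sexes. It gave 0.69 for Olr1692, 0.27 for Olr1686, 0.92 for Olr1722 and -0.05 for Olr1694.

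The standard error of the sex difference was 0.10 to 0.33 over the 40 receptors, with a median of 0.21. Differences of the size of 1 standard error were therefore not detectable with 4 rats a sex, and the result does not show that the sexes were alike. Over rats, the mean level of the mature neuron probes was 5.69 to 5.83 in males and 5.73 to 5.97 in females. The mean of the 3 probes of sustentacular cells, the supporting cells of the epithelium, was 9.39 to 9.61 in males and 9.65 to 9.84 in females. It did not overlap between the sexes, which held for 11.3% of all probes taken singly. Of these 3 probes 2 had an unadjusted p under 0.05 by limma, against 17.1% of all probes, and 0 passed 5%. The Bowman gland probes ranged from -0.71 to 3.77 in males and 2.27 to 4.22 in females, and the blood probes from 6.58 to 9.41 and from 5.46 to 8.69. The part of these cell types in the receptor differences was not tested.

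**Figure D2:**
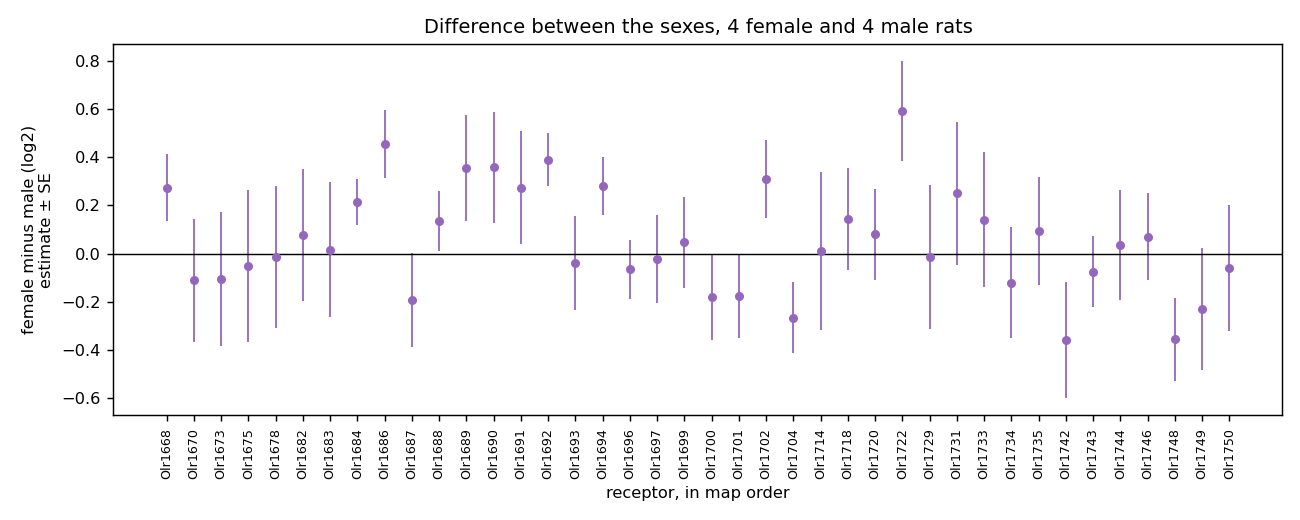
Each point is the female minus male difference in log2 level of 1 tested receptor (y axis, bars are ± 1 SE of the limma fit, 4 rats a sex), in map order (x axis). Differences ran from -0.36 to 0.59, with 0 of 40 past the 1% threshold.

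The third question was whether animals of a sex differ by more than their nostrils do. By limma's F-statistic with the nostrils as the error, 0 of the 40 receptors passed 1%, against 768 of 27574 probes (2.79%). At an unadjusted p under 0.05 there were 11 of 40 (27.5%), against 37.1% of all probes. The order of these shares turned in 2 settings, at 22.5% against 8.82% after normexp background correction and 42.5% against 34.2% without male 5, and without female 8 they were 5% against 32.3%. At a false discovery rate of 5% a single receptor passed, Olr1675 (F = 5.70, adjusted p = 0.0487).

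Olr1675 has no subfamily name in RefSeq and lies among the Or2n genes, at chr20:213095-213154 on the minus strand.
Olr1675: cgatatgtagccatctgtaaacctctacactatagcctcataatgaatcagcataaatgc
In males its level was 1.01 in nostril A of male 1, -0.06 and 0.62 in nostrils A and B of male 2, 0.46 and -0.08 in male 5, and 0.75 and 0.48 in male 6. In females it was 0.57 and 1.42 in female 3, 0.16 and 0.72 in female 4, 0.87 and 1.01 in female 7, and -0.50 and -0.45 in female 8. Both nostrils of female 8 lay below every other array. Without female 8 the F fell to 1.72 (adjusted p = 0.369 by limma), and the 5% call was also lost without female 7 (adjusted p = 0.0930), male 5 (adjusted p = 0.0528) or male 6 (adjusted p = 0.0526). It was lost as well with scaling to the 75th percentile (adjusted p = 0.0538), with the authors' ratio table (adjusted p = 0.0729) and with no filter (adjusted p = 0.141, all by limma). Without male 1, which has 1 array, the F was 6.08 (adjusted p = 0.0499 by limma).

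The next highest F belonged to Olr1682 (5.10, adjusted p = 0.0598), Olr1678 (4.64, adjusted p = 0.0703), Olr1673 (4.53, adjusted p = 0.0732) and Olr1670 (4.37, adjusted p = 0.0783, all by limma). Each of them passed 5% in some alternative setting, with a lowest adjusted p of 0.0377 (Olr1670) to 0.0489 (Olr1678) by limma. These are Or2n receptors and lie next to Olr1675, as does Olr1683 (F = 4.24, adjusted p = 0.0827). The 6 genes fall within 169 kb, were grouped after their values were seen and have no test as a group. The weakly expressed Olr1671, Olr1679 and Olr1681 lie among them and were not tested. In each of the 6, both nostrils of female 8 were below both nostrils of female 7, which lay on the same slide, and the mean of female 7 was 1.95-fold to 2.66-fold that of female 8. In 5 of the 6, female 8 was below every other array.

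Leaving out female 8 brought F to 1.42 to 1.91 for the 5 receptors with the highest values, so that their spread among animals rests largely on that rat. With slide as a block, where F compares neighbors on a slide, it was 6.14 to 11.9 and none passed (adjusted p = 0.140 to adjusted p = 0.204 by limma). The mature neuron probes of female 8 had a mean level of 5.73, within the range of 5.69 to 5.97 over the 8 rats, and the immature neuron probes had their lowest mean in female 8, 7.76 against 7.82 to 8.02 in the others. Markers of some other cell types differed between rats of a sex. Both blood probes and 1 of 4 bone probes passed 1% by limma, against 2.79% of all probes. All 4 bone and all 3 tested basal cell probes had an unadjusted p under 0.05, against 37.1% of all probes. The same held for 1 of 3 sustentacular, 0 of 3 respiratory ciliated and 0 of 3 Bowman gland probes tested. The mean of the blood probes was 5.46 to 9.41 over the rats, with 6.64 in female 8 and 5.46 in female 7. The part of these cell types in the result was not tested.

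Between nostrils the 6 neighbors often went the same way. Nostril B of female 3 was the highest of the 15 arrays for all 6, above nostril A of the same rat by 0.55 to 0.94 log2 units. The nostrils of female 3, unlike those of any other rat, were on different slides, so nostril and slide cannot be told apart there. Nostril B was the higher for all 6 in male 2, where it was so for 16 of the 40 receptors, and in female 4, where it was so for 34 of 40. Nostril A was the higher for all 6 in male 5 and male 6, against 13 and 11 of 40. Olr1668, the remaining tested Or2n receptor and the first of the cluster, did not follow them. It was dim, at -1.84 in male 1, -1.98 in male 2, -1.90 in male 5 and -2.26 in male 6, and at -1.56 to -1.87 in females, with detection on 12 arrays.

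The Or14j receptors, the first of which lies 4 genes beyond Olr1683, had another order of animals. Male 2 was the highest rat for 4 of 7 of them, and the lowest was male 6 for 3, male 1 for 2 and female 8 for 2. Olr1690 had levels of 1.96, 2.94, 2.43 and 1.74 in males 1, 2, 5 and 6, and 2.58, 2.38, 2.71 and 2.82 in females 3, 4, 7 and 8 (F = 3.70, adjusted p = 0.104 by limma). Female 8, lowest for the 6 neighbors, was here the second highest rat. Male 2 was also the highest rat for Olr1689, at 1.18, whose probe matches most of that of Olr1690.

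**Figure D3:**
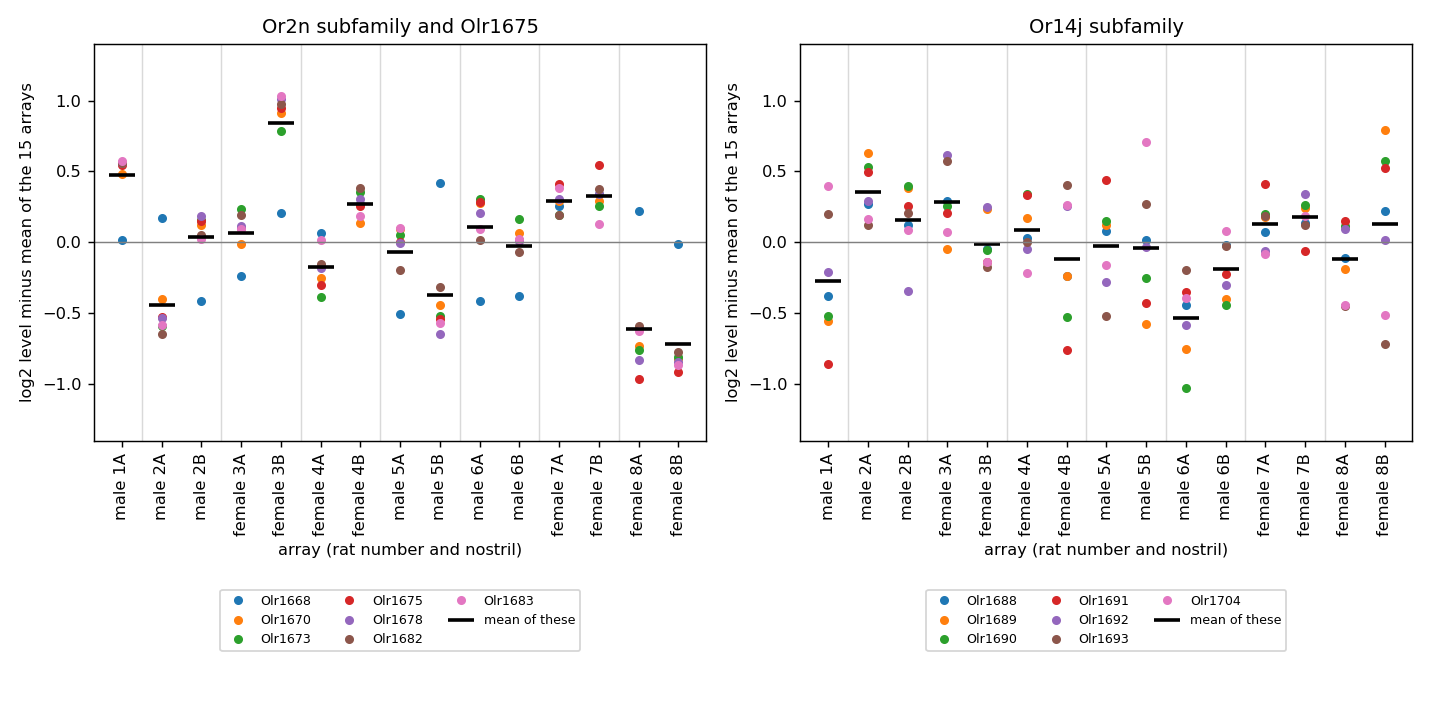
Log2 level of each receptor minus its mean over the 15 arrays (y axis) on each array, named by rat and nostril (x axis), for the 6 tested Or2n receptors with Olr1675 (left) and the 7 Or14j receptors (right). Colored points are receptors and black dashes their mean. On the left, all receptors but Olr1668 are low in both nostrils of female 8 and highest in nostril B of female 3, and on the right female 8 is not the low animal for most receptors.

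For the Or10al receptors, female 8 was the lowest rat for 6 of 6 and male 1 the highest for 4 of 6. The mean of nostril B over that of A was 0.78 log2 units in male 5, 0.46 in female 4 and 0.44 in male 6, with all 6 receptors the same way in each, and it was -0.33 in female 8, again for all 6. Most of the 40 receptors went that way in these rats, 27 in male 5, 34 in female 4, 29 in male 6 and, toward nostril A, 31 in female 8. Both Or12d receptors, Olr1734 and Olr1735, were highest in male 1 and lowest in female 8. Over all 40 receptors, male 1 was the highest rat for 21 and female 8 the lowest for 22. Of the other Olr probes 45.8% were lowest in female 8. Male 1 was the highest rat for 32.6% of them and the lowest for 19.4%, and female 3 was the highest for 28.8%. Male 1 had a single array, so its value carries the spread of 1 nostril.

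**Figure D4:**
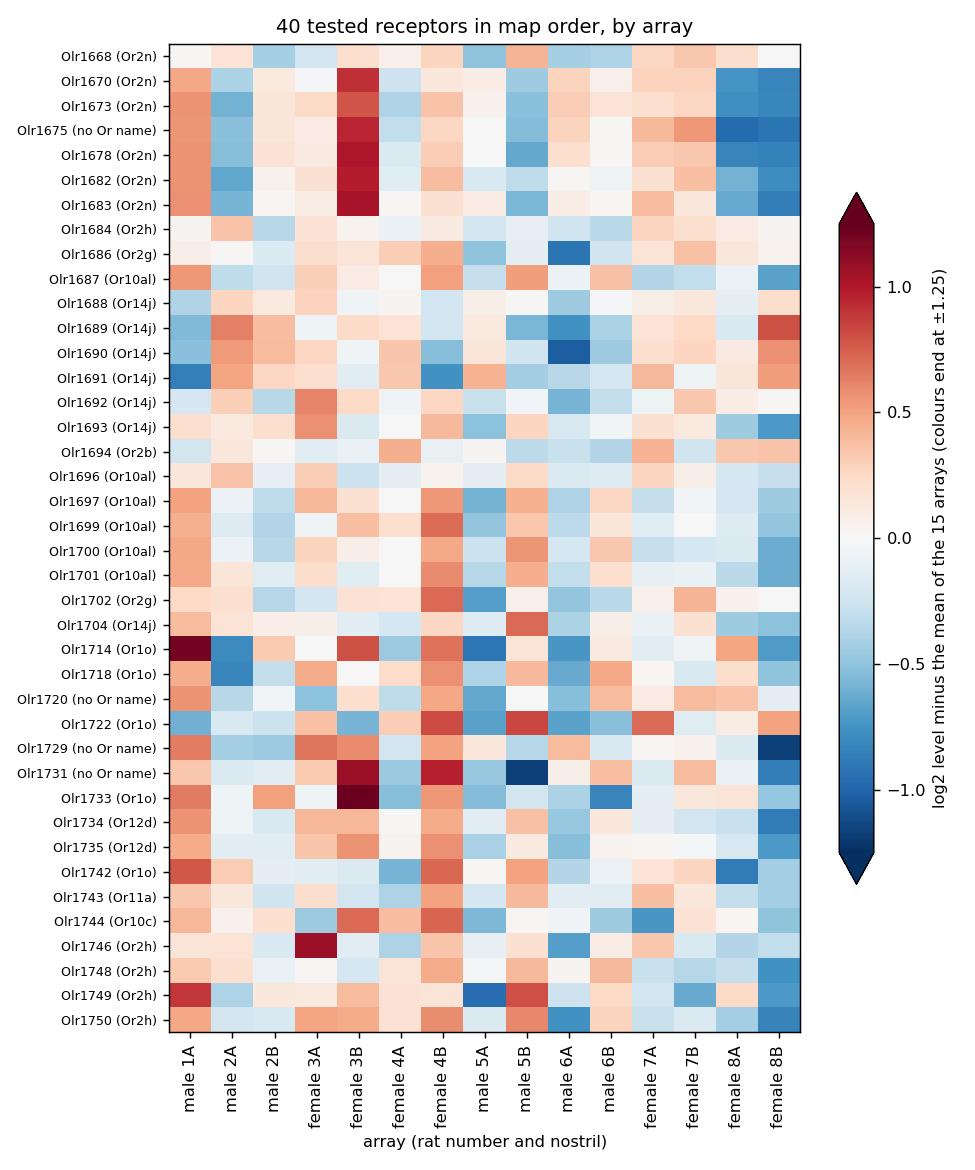
Log2 level minus the mean of the 15 arrays for the 40 tested receptors in map order (rows) on each array (columns, rat number and nostril); red is above the mean of the receptor and blue below. Blocks of neighbors such as Olr1670 to Olr1683 share a color on most arrays, and female 8 is blue for many receptors.

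The range of rat means was 1.34-fold (Olr1696) to 2.96-fold (Olr1714) over the 40 receptors, with a median of 1.94-fold. The SD between nostrils of a rat had a median of 0.34 log2 units for the 40, 0.37 for the 723 other Olr probes tested and 0.12 for all tested probes. Probes of no receptor in the same range of mean levels, -2.46 to 3.78, had a median of 0.14 (18121 probes). The SD was 0.19 (Olr1688) to 0.68 (Olr1714). It had a median of 0.33 in the 24 tested receptors before the widest gap and 0.46 in the 16 after it, where 8 of the 20 genes were detected on all 15 arrays against 22 of 28 before it.

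**Figure D5:**
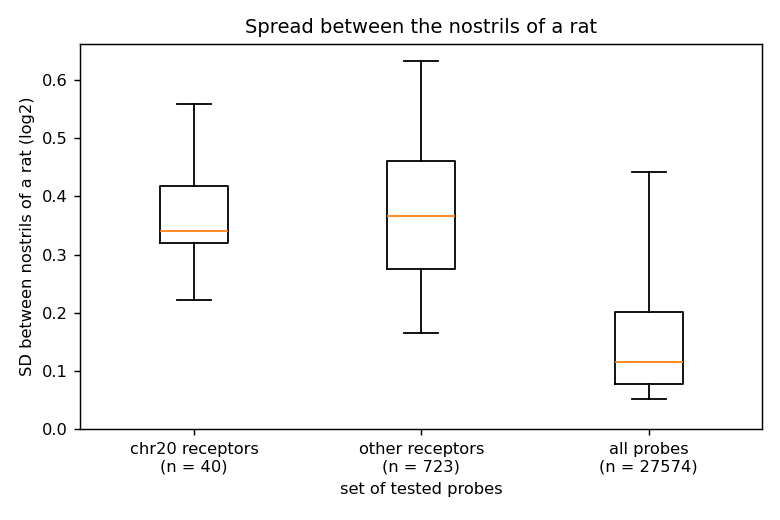
Boxes give the quartiles and whiskers the 5th and 95th percentiles of the SD between the nostrils of a rat in log2 units (y axis), for the 40 chromosome 20 receptors, 723 other receptors and all 27574 probes with values on every array (x axis). The medians are 0.34, 0.37 and 0.12.

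The fourth question was whether nostril A differs from nostril B in the same way in every rat. With the rat as a block, limma called 0 of the 40 receptors at 1% or 5%, against 0 of 27574 probes (0%), and 3 (7.5%) had an unadjusted p under 0.05, against 5.89%. Nostril B had the higher mean for 32 receptors and nostril A for 8, and for none of them did all 7 rats go one way. The median difference of B minus A was 0.15 for the 40, 0.12 for the other Olr probes and 0.01 for all probes. Without female 8 there were 11 receptors (27.5%) at an unadjusted p under 0.05, against 8.33% of all probes, and 0 past 1%.

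Olr1720, an unnamed receptor between Or1o genes, was higher in nostril B by 0.46 (SE 0.16, adjusted p = 0.781 by limma), in every rat but female 8. After normexp background correction its difference was 0.19. Olr1714, of the Or1o subfamily, was higher in nostril B by 1.12 in male 2, 0.79 in female 3, 1.14 in female 4, 1.06 in male 5, 0.84 in male 6 and 0.10 in female 7, while B minus A was -1.20 in female 8. Its mean difference of 0.55 had an SE of 0.27 (adjusted p = 0.781 by limma), and was 0.84 without female 8 and 0.16 after normexp background correction. Olr1704, of the Or14j subfamily, had a difference of 0.25 (SE 0.12), which was 0.14 without male 5.

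For Olr1694 and Olr1691 the difference went toward nostril A, -0.25 (SE 0.09) and -0.36 (SE 0.16), each in 5 of 7 rats, with an adjusted p = 0.781 by limma for both. That of Olr1691 was -0.24 without female 4. The test of whether the nostril difference depended on sex called 0 of 40 receptors and 0 of 27574 probes (0%) by limma at 1%, with 2 receptors (5%), Olr1718 and Olr1749, at an unadjusted p under 0.05 against 2.36% of probes. Without male 2 there were 14 receptors (35%) against 2.08% of probes, and without female 4 there were 7 (17.5%) against 5.09%, with 0 past 1% in both. Leaving out male 2 left males 5 and 6 alone with both nostrils, all on slide 3, which held no female. Olr1718, an Or1o receptor, had nostril B higher by 0.52, 0.79 and 1.098 in males 2, 5 and 6, and differences of -0.46, 0.34, -0.22 and -0.73 in females 3, 4, 7 and 8 (adjusted p = 1.00 by limma).

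Olr1702, Olr1730 and Olr1743, for which the study designed quantitative PCR primers, are described next. The probe of Olr1743, the Or11a receptor (chr20:1445866-1445925, minus strand), begins at the first codon annotated in RefSeq, in capitals, as does that of Olr1714.
Olr1743: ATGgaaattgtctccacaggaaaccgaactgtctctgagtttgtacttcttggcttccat
Its level was 0.95, 0.56, 0.71 and 0.47 in males 1, 2, 5 and 6, and 0.60, 0.67, 0.87 and 0.25 in females 3, 4, 7 and 8. The sexes overlapped, with means of 0.67 ± 0.21 and 0.60 ± 0.26 (SD, n = 4 each, adjusted p = 0.831 by limma). Olr1702, an Or2g receptor, had means of -0.11 ± 0.29 in males and 0.20 ± 0.22 in females (adjusted p = 0.362 by limma).

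Olr1730, the Or5v receptor, was detected on 5 arrays (male 1, both nostrils of female 4, nostril B of females 3 and 7), so it was not tested. Its means were -2.28 ± 0.34 in males and -2.22 ± 0.25 in females (SD, n = 4 each). Olr1729, a receptor without a subfamily name, was detected on 11 arrays, with means of -2.03 ± 0.45 in males and -2.04 ± 0.54 in females (adjusted p = 0.988 by limma). Olr1750, the last receptor of the cluster, was on all 15 arrays, at -0.34 ± 0.35 in males and -0.40 ± 0.52 in females (adjusted p = 0.930 by limma).

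Genes that act with the receptors were read from lists, and the transduction list shares Gnal, Cnga2, Omp and others with the list of mature neurons. Of 24 probes for odor transduction and receptor trafficking, such as Gnal, which encodes the G protein of the odor response, 23 were tested. Between the sexes 0 passed 1%, and 4 (17.4%, against 17.1% of all probes) had an unadjusted p under 0.05, all higher in females, with a median difference of 0.09 against 0.01 for all probes. Between rats 0 passed 1% and 8 (34.8%, against 37.1% of all probes) had an unadjusted p under 0.05 by limma. For 10 probes of regulators of receptor choice, such as Lhx2 and Ldb1, 0 passed 1% in either comparison, with 0 and 7 (70% between rats) at an unadjusted p under 0.05.

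Of 38 probes on chromosome 20 with gene names that begin with RT1, here called the MHC class I and II list, 32 were expressed and tested. The list was taken by name, so not every gene in it, such as RT1-Ke4, need be of class I or II. Between the sexes 0 passed 1%, and 5 (15.6%, against 17.1% of all probes) had an unadjusted p under 0.05 by limma, all lower in females, with a median difference of -0.10. Between rats 0 passed 1% and 18 (56.2%, against 37.1% of all probes) had an unadjusted p under 0.05. RT1-M3, which lies among the receptors, was on all 15 arrays, with a sex difference of -0.16 (adjusted p = 0.620 by limma) and an F of 6.83 between rats (adjusted p = 0.034 by limma). The 14 probes of framework genes of the MHC, Gabbr1 and Ubd among them, gave 0 past 1% in either comparison, with 1 (7.14%) and 5 (35.7%) at an unadjusted p under 0.05. Between nostrils 0 probes of these 4 lists passed 1% by limma, against 0% of all probes. At an unadjusted p under 0.05 there was 1 of 32 (3.1%) in the MHC class I and II list and 0 in the others, against 5.89% of all probes.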

How the data were processed

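Per the file headers, the authors scanned each one-color array and extracted intensity with Feature Extraction 9.5.1.1, background-subtracted and detrended, with probe positions on rn3. The authors also deposited a ratio table, each signal divided by its array's median and its probe's median (99.9% of 20221 bright probes came within 2% of that calculation), used as an alternative. Here, flagged spots (61 to 175 per array) were left out, spots of a probe averaged and signals divided by the array median (57.4 to 83.4 intensity units). Values under 0.1 of it were raised to it (-3.32 on the log2 scale) and log2 was taken. On each array 26233 to 28741 probes were detected, and the number of arrays limits the precision.

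Probes detected on at least 7 arrays were tested with limma 3.58.1 in R 4.3.3 (lmFit, eBayes with a trend), two-sided, with Benjamini-Hochberg adjustment over all probes at 1%. The sexes were compared on rat means (4 against 4). Rats of a sex were compared on 15 arrays with nostrils as the error, and nostrils with rat as a block on 14 arrays. The fits were tested on simulated data. Alternatives changed the scaling, background correction, floor, filter, source, slide term, test, threshold and rats included. The receptor cluster was taken up, and the gene lists were chosen, with earlier results of these data known. Named are the 5 receptors with the smallest p or highest F in each comparison, those of the study's PCR and newborn work, the ends of the cluster and the 3 most alike probe pairs; others were chosen after their values were seen. The labels do not give the supplier or the side of a nostril, which were not analysed here.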

Additional observations from a re-analysis of the deposited data

Results flagged for a closer look

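Among the 80 groups of 4 rats given by 40 receptors and both sexes, 5 had an animal that stood apart from the other 3 by most of the group's range. Chance flags about 1 in 20 such groups. Male 1, measured in 1 nostril only, was the high animal in 3 of them. Olr1714 was at -0.61 in male 1 against -2.17 to -2.03 in the other males, Olr1735 at -0.47 against -1.18 to -1.07, and Olr1749 at -1.03 against -2.04 to -1.92. Female 8 was the low animal in the other two. Olr1693 was at -2.28 in female 8 against -1.54 to -1.49 in the other females, and Olr1704 at 1.98 against 2.42 to 2.50. No receptor had nostril differences that went one way in every male and the opposite way in every female.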

How the results depend on the processing

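Of 335 recalculated values, 332 were counted as unchanged in direction and call. Of the other 3, 1 changed direction and 2 changed call only because the threshold was moved to 5%. Calls were compared at 1%, which no receptor passed in the main fits, so values could move far and still count as unchanged. An F has no direction, and numbers of expressed receptors from 30 to 46 all counted as unchanged. The number of expressed receptors was 39, 46 with positive and significant calls and 30 when all 15 arrays were required. It was 34 to 39 when each rat was left out, a choice made after seeing the data, as were the alternatives for the dependence of the nostril difference on sex. No receptor passed 1% between the sexes, rats, nostrils or for that dependence under any alternative run, and 0 to 0 passed when rats were left out. At a false discovery rate of 5% the number differing between rats became 1, Olr1675 (F = 5.70), a call lost in 8 of 16 other settings. The lowest adjusted p over settings was 0.0433 for Olr1682, 0.0489 for Olr1678, 0.0457 for Olr1673 and 0.0377 for Olr1670 by limma. Taking the 15 arrays as independent, Olr1692 (adjusted p = 0.0432 by limma) and Olr1686 (adjusted p = 0.0167 by limma) passed 5% between the sexes. With slide as a block the sex difference of Olr1694 was -0.05 (-0.0457). In that fit the sexes meet only on slide 1, where the female arm is 1 array, assumed to vary like the others. At an unadjusted p under 0.05, 2 to 17 receptors were counted between rats (8.82% to 40.6% of all probes), with 17 without male 5 (34.2%), 2 of 40 without female 8 (32.3%) and 2 of 48 with no filter (26.8%). There were 2 to 7 between the sexes (6.55% to 29.4% of all probes), 1 to 11 between nostrils (1.47% to 8.33%), and 1 to 14 for the dependence of the nostril difference on sex (1.49% to 5.46%), with 14 without male 2 (2.08%). Over all probes the same fit, with its single female array, gave 468 calls at 1% between the sexes, and slide as a block gave 1 between rats. Treating the 15 arrays as independent gave 1031 between the sexes. Signal over background limits what can be said of the 18 receptors not detected on every array. No paired analysis was possible between the sexes, because they share no rat or replicate number, while nostrils were compared within rats.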
